A study of Mus musculus with 12 samples.

Results

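BMP signalling and the Id genes were followed in mouse embryonic stem cells (ESCs) through 9 genes of 23496 in the table: the ligand Bmp4, the receptor Bmpr1a, the signal transducers Smad1 and Smad5, the inhibitor Smad6 and the targets Id1, Id2, Id3 and Id4. The 9 were chosen by name, as a pathway, though with earlier results of these data known. RNA-seq libraries came from 3 groups of 4. Tfcp2l1 knockout ESCs, labelled as lacking a transcription factor of the naive pluripotency network, were grown in 2i, a serum-free medium with N2 and B27 supplements, 3 µM of the GSK3 inhibitor CHIR99021, 1 µM of the MEK inhibitor PD0325901 and 1000 units/mL of LIF. Wild-type ESCs were grown in the same 2i medium, and wild-type ESCs kept in 15% fetal bovine serum (FBS), again with 1000 units/mL of LIF, formed the remaining group. All 3 groups thus received LIF, and the labels give neither the ESC line, nor the number of knockout clones, nor whether feeder cells were used.

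BMP ligands bind pairs of type I and type II receptors, which phosphorylate Smad1, Smad5 and Smad9, and these enter the nucleus with Smad4 and activate targets of which the Id genes are the best known. Id proteins are helix-loop-helix proteins without a DNA-binding region that capture E proteins and so block lineage-promoting basic helix-loop-helix factors. In mouse ESCs, BMP or serum has long been used together with LIF to hold back differentiation through Id genes, whereas 2i medium contains no serum and no added BMP.

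Levels are FPKM, which scale the fragments on a transcript by its length and by library size. They were deposited by the authors and summed here per gene, so levels of different genes can be compared per length. Library totals ran from 347772 to 358340 FPKM, and the number of reads behind it is unknown. The 4 libraries labelled knockout held 76.1, 72.01, 83.0 and 84.7 FPKM of Tfcp2l1, below the 133, 143, 112 and 139 FPKM of wild type in 2i, so its transcript was at 59.8% of wild type in 2i, and at 2.52 times wild type in FBS. The files do not show which part of the gene the knockout alters, so these values do not check the label. All 8 ESC markers, among them Pou5f1 and Nanog, were above 1 FPKM in every group, with sums of 3571 to 3753, 3778 to 4532 and 2961 to 3900 FPKM in the knockout, wild type in 2i and FBS. Fibroblast markers were present too: 20 genes summed to 1006 to 1476 FPKM in the knockout, 938 to 1092 FPKM in wild type in 2i and 503 to 604 FPKM in FBS, and none was at 0 in all libraries. Sparc and Fn1 weighed heavily in these sums. They averaged 391 and 205 FPKM in the knockout, 442 and 245 FPKM in wild type in 2i, and 150 and 121 FPKM in FBS. Neither was called higher in the knockout than in wild type in 2i, and Fn1 was lower. In the knockout 16 of the 19 fibroblast markers tested were higher and 1 was lower than in wild type in 2i. Over all genes tested these shares were 24% and 21.4%. With the medium, in wild type, 10 were higher and 4 lower in 2i, against 37.1% and 35.3% of all genes. Of the 8 ESC markers, 1 was higher and 4 lower in the knockout than in wild type in 2i, and 5 were higher and 1 lower in 2i than in FBS. Trophoblast-like markers summed to 60.6 to 70.1, 37.8 to 58.9 and 254 to 329 FPKM in the knockout, wild type in 2i and FBS. Neural-like markers summed to 26.5 to 33.5, 10.1 to 25.7 and 36.6 to 60.5 FPKM, epiblast-like and mesoderm markers to 10.2 to 11.9, 12.5 to 15.9 and 31.8 to 41.3 FPKM, and endoderm markers to 8.33 to 10.0, 8.27 to 13.3 and 13.1 to 20.7 FPKM, in the same order of groups. In bulk RNA a change in the number of cells of a type and a change in RNA per cell cannot be told apart.

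Knockout and wild-type cells in 2i were compared first, for transcripts that differ between the genotypes named in the labels. Of the 9 genes, 5 passed an adjusted p of 0.05, where 45.3% of the 12329 genes tested passed. Bmp4, Id1, Smad5 and Smad6 rose and Smad1 fell, where 24% of all genes rose and 21.4% fell. For these 5 the 4 values of either genotype lay apart, as they did for 44.1% of all genes. The second comparison set wild-type cells in 2i against wild-type cells in FBS. Here 8 of the 9 passed, against 72.4% of all genes: Id3, Id4, Smad1 and Smad6 were higher in 2i and Bmp4, Id1, Id2 and Smad5 were lower, where 37.1% of all genes were higher and 35.3% lower. The groups did not overlap for 7 of the 9, against 62.5% of all genes. The median absolute log2 difference of the 9 was 0.24 in the knockout and 0.59 between media, against 0.17 and 0.35 over all genes. A comparison of the knockout in 2i with wild type in FBS, which differ in genotype and medium at once, was used to order the 3 groups, and 6 of the 9 passed there, against 66.6% of all genes, with 4 higher and 2 lower in the knockout (34.7% and 31.9% of all genes). Its groups did not overlap for 5 of the 9, against 62.8% of all genes. All 9 genes reached 1 FPKM in all 12 libraries. The 3 comparisons share libraries and are given side by side, with log2 differences on the log2(FPKM + 1) scale throughout. That scale understates the change of low genes such as Bmp4.

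**Figure D1:**
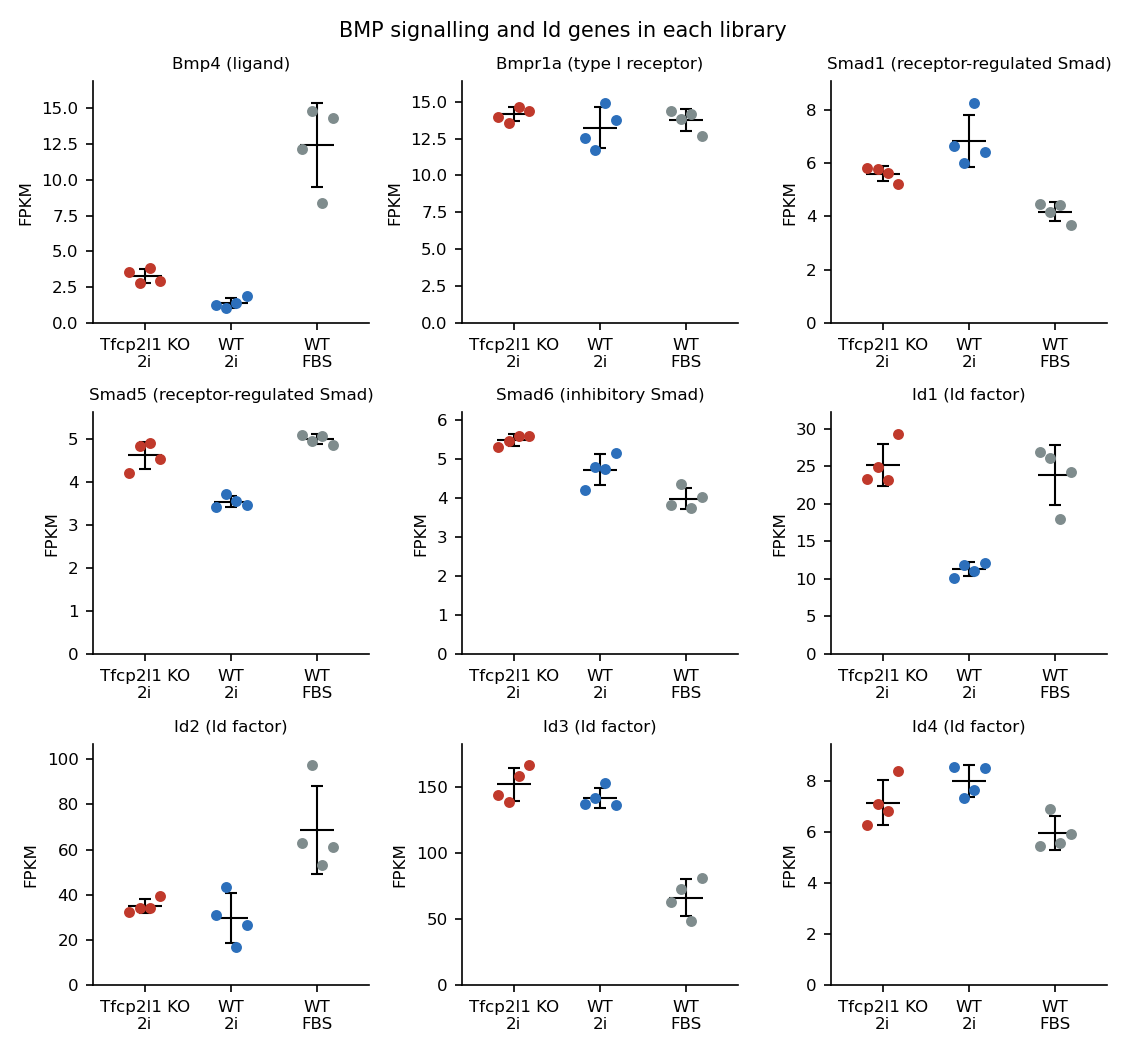
FPKM of the 9 genes in each library, with 1 panel per gene, points for the 4 libraries of a group and a bar with its whiskers for the mean ± SD (n = 4). Bmp4 and Id1 are lowest in wild type in 2i, Id3 stands at 136 FPKM or more in all 8 libraries in 2i and at 81.0 FPKM or less in FBS, and Bmpr1a is alike in the 3 groups.

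Bmp4, the ligand of the set, was low in 2i and differed between all 3 groups. It was an entry of 1 transcript (NM_007554; mm9, chromosome 14, 47003196 to 47010274) at 3.56, 2.81, 3.86 and 2.90 FPKM in the knockout, 1.28, 1.05, 1.43 and 1.90 FPKM in wild type in 2i, and 12.1, 14.8, 8.40 and 14.3 FPKM in FBS. No library of a group overlapped a library of another group. The mean of 3.28 ± 0.51 FPKM in the knockout was 2.32 times the 1.41 ± 0.36 FPKM of wild type in 2i (SD, n = 4 each; log2 difference 0.83, SE 0.16, limma adjusted p = 0.00108). Wild type in 2i held 11.4% of the 12.4 ± 2.91 FPKM measured in FBS (log2 difference -2.46, SE 0.16, limma adjusted p = 2.72e-08), and the knockout held 26.5% of it (-1.63, SE 0.16, limma adjusted p = 1.58e-06). Relative to the genes tested, 23.9% lay below Bmp4 in the knockout, 9.90% in wild type in 2i and 57.8% in FBS. With the mean log2 level of the fibroblast markers in the model, the knockout minus wild type in 2i gave a log2 difference of 0.79 (SE 0.29, limma adjusted p = 0.0866), and that between 2i and FBS -2.49 (SE 0.25, limma adjusted p = 9.42e-06). That marker level did not overlap between the groups. Here and below, this model therefore cannot separate it from genotype or medium.

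The sequence just before the annotated start of Bmp4 is shown with those of Id2 and Id3, the Id genes that moved furthest apart between media. No promoter entry for Id1 was found, so its sequence is not shown. The RefSeq promoter table (GRCm38.p6) matched 8 of the 9 genes, and the 250 bases before the start are printed 5′ to 3′ on the gene's strand: chr14:46390670-46390919, minus strand, for Bmp4, chr12:25096093-25096342, minus strand, for Id2, and chr4:136143572-136143821, plus strand, for Id3. Capitals mark GGCGCC, a GC-rich element bound by Smad1 and Smad5, and GTCT or its reverse complement AGAC, the short Smad box.
Bmp4: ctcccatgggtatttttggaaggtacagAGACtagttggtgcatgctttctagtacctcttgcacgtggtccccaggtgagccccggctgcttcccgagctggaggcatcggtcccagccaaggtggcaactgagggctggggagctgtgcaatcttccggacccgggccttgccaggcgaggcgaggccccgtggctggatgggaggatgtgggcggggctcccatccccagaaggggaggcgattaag
Id2: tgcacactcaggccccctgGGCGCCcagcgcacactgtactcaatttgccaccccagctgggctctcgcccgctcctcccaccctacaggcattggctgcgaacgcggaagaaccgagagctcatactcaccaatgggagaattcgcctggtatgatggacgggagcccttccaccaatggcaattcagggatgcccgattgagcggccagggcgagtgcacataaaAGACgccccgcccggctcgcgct
Id3: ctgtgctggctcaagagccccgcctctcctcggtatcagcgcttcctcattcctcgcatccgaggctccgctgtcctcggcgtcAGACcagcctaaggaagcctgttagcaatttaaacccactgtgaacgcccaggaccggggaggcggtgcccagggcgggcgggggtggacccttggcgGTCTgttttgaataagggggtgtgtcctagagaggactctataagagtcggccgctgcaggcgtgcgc
The Id2 stretch held 1 GGCGCC, 231 bases before the start, and 1 Smad box. The Id3 stretch held Smad boxes 166 and 68 bases before the start, and the Bmp4 stretch 1 at 222 bases, with no GGCGCC in these windows of either gene. GGCGCC occurred in 4 of the 8 matched genes, counting any listed promoter of a gene. Smad5 counted only through 1 of its 3. With 1 promoter taken per gene, GGCGCC occurred in 9.54% of 27025 promoters of this length. GTCT occurred in 83.0% of them, on either strand, with a median of 2 per promoter. The count of 4 of the 8 genes took any listed promoter, so it is not counted like these shares. GC content, 60.0% to 78.8% in the stretches of the matched genes, was not matched. Matches of letters do not show binding.

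Bmpr1a, the type I receptor that binds Bmp4, did not differ between groups by the test. It measured 14.0, 13.6, 14.6 and 14.4 FPKM in the knockout, 12.5, 11.7, 14.9 and 13.7 FPKM in wild type in 2i, and 14.4, 13.8, 14.2 and 12.7 FPKM in FBS (NM_009758; chromosome 14, 35224254 to 35315732). The 3 groups overlapped one another. Against wild type in 2i the knockout gave a log2 difference of 0.10 (SE 0.07, limma adjusted p = 0.265), with -0.06 (SE 0.07, limma adjusted p = 0.449) for 2i against FBS.

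Smad1 and Smad5, the transducers that the receptor activates, moved in opposite directions. Smad1 (NM_008539; chromosome 8, 81862298 to 81923367) measured 5.81, 5.76, 5.63 and 5.21 FPKM in the knockout, 6.65, 6.01, 8.24 and 6.40 FPKM in wild type in 2i, and 4.45, 4.17, 4.43 and 3.68 FPKM in FBS. The order was wild type in 2i, knockout, then FBS, with no overlap between groups. The fall in the knockout, to 82.1% of wild type, was small (log2 difference -0.24, SE 0.08, limma adjusted p = 0.0354), and the excess of 2i over FBS was larger (0.59, SE 0.08, limma adjusted p = 3.49e-05). The knockout call was lost without any 1 of the 4 knockout libraries (adjusted p = 0.0538, 0.0562, 0.066 and 0.0923 without replicates 1 to 4), and without wild type in 2i replicate 1 (0.0591) or 3 (0.0795), which left log2 differences of -0.25, -0.25, -0.24, -0.21, -0.25 and -0.15. It was also lost with no filter on low values (0.0542) and after rescaling to TPM (0.0599).

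Smad5 was lowest in wild type in 2i. Its 3 entries on chromosome 13 summed to 4.21, 4.82, 4.89 and 4.53 FPKM in the knockout, 3.42, 3.72, 3.54 and 3.47 FPKM in wild type in 2i, and 5.09, 4.94, 5.05 and 4.85 FPKM in FBS, and the entry NM_008541 (56804371 to 56843739) held 81.0% to 97.1% of the sum. Wild type in 2i lay below every other library. The knockout was 1.30 times wild type in 2i (log2 difference 0.31, SE 0.05, limma adjusted p = 0.000741) and 2i was 71.0% of FBS in wild type (-0.40, SE 0.05, limma adjusted p = 2.43e-05), while the knockout and FBS did not differ by the test (-0.09, SE 0.05, limma adjusted p = 0.148). After quantile normalization that last difference passed (adjusted p = 0.0151). Smad1 exceeded Smad5 by a ratio of 1.22 ± 0.11 in the knockout and 1.93 ± 0.30 in wild type in 2i, and fell short of it in FBS at 0.84 ± 0.06 (SD, n = 4 each). Their sum stayed between 9.75 and 10.6 FPKM in the knockout, 9.73 and 11.8 FPKM in wild type in 2i, and 8.52 and 9.54 FPKM in FBS.

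Smad6, which blocks the activated receptor and Smad1 and is itself a BMP target, was graded across the groups. It measured 5.29, 5.46, 5.59 and 5.60 FPKM in the knockout, 4.21, 4.81, 4.74 and 5.15 FPKM in wild type in 2i, and 3.81, 4.36, 3.75 and 4.03 FPKM in FBS (NM_008542; chromosome 9, 63800883 to 63869866). The knockout lay above both other groups, and wild type in 2i overlapped FBS in its lowest library. The rise in the knockout was 1.16-fold (log2 difference 0.18, SE 0.06, limma adjusted p = 0.0315), and wild type in 2i exceeded FBS 1.19-fold (0.20, SE 0.06, limma adjusted p = 0.012). The knockout call was lost without knockout replicate 2, 3 or 4 (adjusted p = 0.0619, 0.0734 and 0.0707; log2 differences 0.18, 0.17 and 0.17) or wild type in 2i replicate 1 (0.101; 0.14), and the call between media after quantile normalization (0.0548). The knockout against FBS gave 0.38 (SE 0.06, limma adjusted p = 0.000154). With fibroblast markers in the model, Smad5 and Smad6 had adjusted p of 0.0961 and 0.694 and Smad1 0.273 in the knockout comparison, with log2 differences of 0.26, 0.07 and -0.26, and Smad6 had 0.33 between media (0.11).

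**Figure D2:**
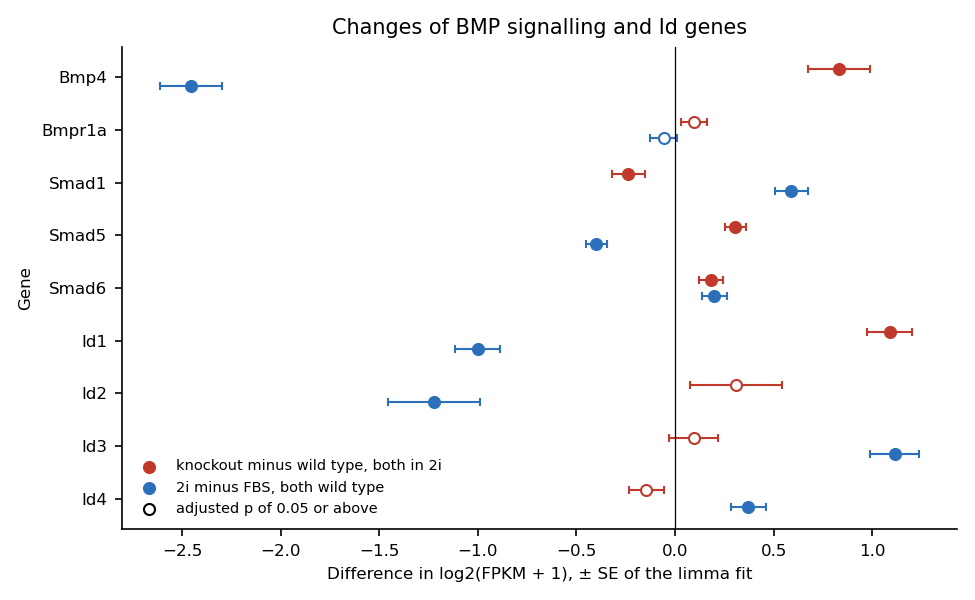
Differences in log2(FPKM + 1) with the SE of the limma fit for the knockout minus wild type in 2i (red) and for 2i minus FBS in wild type (blue); open points did not pass an adjusted p of 0.05. Id1 lies at 1.09 and -1.001 and Id3 at 0.09 and 1.11, so the genes differ in which comparison moved them. Both comparisons use the wild-type libraries in 2i.

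Id1 had the largest log2(FPKM + 1) difference of the 9 genes in the knockout, while Bmp4 had the larger ratio of means. Its transcript (NM_010495; chromosome 2, 152562010 to 152563146) measured 23.3, 24.9, 23.2 and 29.2 FPKM in the knockout, 10.1, 11.9, 11.0 and 12.1 FPKM in wild type in 2i, and 26.8, 26.1, 18.02 and 24.2 FPKM in FBS. Every wild-type library in 2i lay below every library of the other groups, which overlapped each other. The knockout, at 25.1 ± 2.82 FPKM, was 2.23 times wild type in 2i at 11.3 ± 0.93 FPKM (SD, n = 4 each; log2 difference 1.09, SE 0.11, limma adjusted p = 1.31e-05), where 2.9% of all genes were called at 1 log2 unit or more in size. Wild type in 2i held 47.4% of the level in FBS, 23.8 ± 4.00 FPKM (log2 difference -1.001, SE 0.11, limma adjusted p = 4.36e-06). The knockout did not differ from FBS by the test (0.09, SE 0.11, limma adjusted p = 0.518). Id1 was also the 1 member called in the knockout with fibroblast markers in the model (log2 difference 0.84, SE 0.19, limma adjusted p = 0.0122). The 3 genes whose profile over the 12 libraries was most like that of Id1 were Unc5b, a netrin receptor, Phc2, a Polycomb subunit, and Efnb1, a membrane-bound ephrin, with mean absolute differences of 0.12, 0.12 and 0.14 in log2 deviation from the gene's own mean.

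Id3 was the most abundant Id transcript in 2i and did not change with the knockout by the test. It was at 144, 139, 158 and 166 FPKM in the knockout, 137, 142, 153 and 136 FPKM in wild type in 2i, and 62.5, 72.8, 48.3 and 81.0 FPKM in FBS (NM_008321; chromosome 4, 135699737 to 135701307). The genotypes in 2i overlapped, and both lay above all 4 libraries in FBS. Wild type in 2i averaged 142 ± 7.59 FPKM, 2.15 times the 66.1 ± 14.1 FPKM in FBS (log2 difference 1.11, SE 0.12, limma adjusted p = 3.62e-06, where 12.7% of all genes were called at 1 log2 unit or more in size), and the knockout gave 0.09 against wild type in 2i (SE 0.12, limma adjusted p = 0.558). The knockout against FBS gave 1.21 (SE 0.12, limma adjusted p = 2.54e-06), where 9.14% of all genes were called at that size. In wild type in 2i 96.8% of tested genes had a lower mean than Id3, and in FBS 91.7%. Profiles most like that of Id3 were those of Fbrsl1, Map10 and Rnf19b, at 0.11, 0.11 and 0.12 mean absolute log2 difference.

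Id2 was higher in FBS and spread widely within groups. The values were 32.5, 34.1, 34.2 and 39.4 FPKM in the knockout, 31.2, 43.4, 17.0 and 26.7 FPKM in wild type in 2i, and 62.7, 97.2, 53.1 and 61.3 FPKM in FBS (NM_010496; chromosome 12, 25778664 to 25780957). All libraries in FBS lay above all libraries in 2i, and within wild type in 2i the highest library was 2.56 times the lowest. Wild type in 2i held 43.1% of the level in FBS (log2 difference -1.22, SE 0.23, limma adjusted p = 0.000394), and the knockout, at 35.1 ± 3.02 FPKM, did not differ by the test from wild type in 2i at 29.5 ± 11.0 FPKM (0.31, SE 0.23, limma adjusted p = 0.298). Without wild type in 2i replicate 3, the lowest library, that difference was 0.08. Profiles most like that of Id2 were those of Socs3, a feedback inhibitor of LIF signalling, Zfp36, an RNA-decay factor, and Pafah2, at 0.15, 0.17 and 0.19 mean absolute log2 difference. Socs3 averaged 22.5 ± 2.48, 17.3 ± 6.48 and 41.3 ± 4.18 FPKM in the knockout, wild type in 2i and FBS.

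Id4 was the least abundant of the Id transcripts. It was at 6.29, 7.10, 6.82 and 8.40 FPKM in the knockout, 8.53, 7.32, 7.65 and 8.50 FPKM in wild type in 2i, and 5.45, 6.92, 5.58 and 5.91 FPKM in FBS (NM_031166; chromosome 13, 48356796 to 48359405). Wild type in 2i lay above FBS in all libraries, 1.34-fold in the means (log2 difference 0.37, SE 0.09, limma adjusted p = 0.00199), and the knockout overlapped both groups. The knockout against wild type in 2i gave -0.15 (SE 0.09, limma adjusted p = 0.195). Against FBS the knockout gave 0.23 (SE 0.09, limma adjusted p = 0.0372), a call lost without knockout replicate 2 or 4 (adjusted p = 0.0658 and 0.123; log2 differences 0.23 and 0.16) and without FBS replicate 1, 3 or 4 (0.1, 0.0866 and 0.0647; 0.19, 0.20 and 0.22). It was kept in 14 of 24 alternatives, and lost too with no filter (0.0551), median-ratio scaling (0.0624), quantile normalization (0.111), the 8 libraries of both groups alone (0.0501) and fibroblast markers in the model (0.888). With fibroblast markers in the model the difference between 2i and FBS was 0.24 (SE 0.13, limma adjusted p = 0.136).

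The make-up of the Id transcripts differed between groups. The 4 genes summed to 206, 205, 222 and 243 FPKM in the knockout, 187, 204, 188 and 183 FPKM in wild type in 2i, and 158, 203, 125 and 172 FPKM in FBS. Id3 made up 69.3% ± 1.5 of the sum in the knockout, 74.5% ± 4.85 in wild type in 2i and 40.3% ± 4.74 in FBS (SD, n = 4 each). Id2 supplied 15.4% to 16.6% in the knockout, 9.02% to 21.2% in wild type in 2i and 35.5% to 47.9% in FBS, so that in FBS Id2 and Id3 were about level, with Id3 at 0.75 to 1.32 times Id2 per library. The share of Id1 was 10.4% to 12.1% in the knockout, 5.40% to 6.61% in wild type in 2i and 12.8% to 17.1% in FBS, without overlap between groups. The ratio of Id3 to Id1 was 6.07 ± 0.56 in the knockout, 12.6 ± 1.28 in wild type in 2i and 2.79 ± 0.42 in FBS. These shares are descriptions of the 9 chosen genes and were not tested. The authors' upper bounds for Id1, Id2 and Id3 lay below the deposited values in 9, 11 and 12 libraries. The cause was not tested.

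**Figure D3:**
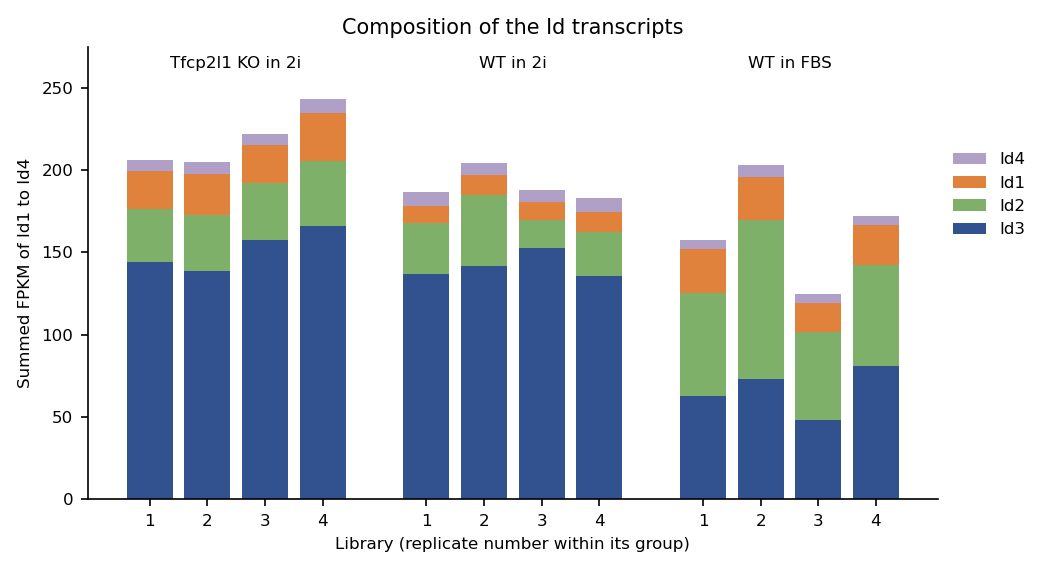
FPKM of Id1 to Id4 stacked for each of the 12 libraries, grouped as knockout in 2i, wild type in 2i and wild type in FBS. Id3 is 67.8% or more of each bar in 2i and 47.0% or less in FBS, where Id2 takes 35.5% to 47.9%.

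A wider list of 72 genes of the pathway was examined by role, of which 43 passed the filter of 1 FPKM in at least 4 libraries. In the knockout 21 rose, 7 fell and 15 did not pass, so that 65.1% passed, and the median log2 difference was 0.18, against 45.3% and 0.01 over all genes. Between 2i and FBS 17 were higher in 2i, 18 lower and 8 did not pass, so that 81.4% passed with a median of -0.0011, against 72.4% and 0.01 over all genes.

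Of 13 ligands 2 were tested and neither passed in the knockout: Bmp7 stood at 7.33 ± 1.03 and 8.57 ± 0.66 FPKM, and Bmp8b at 0.35 ± 0.08 and 0.39 ± 0.14 FPKM, in the knockout and in wild type in 2i. Bmp7 was higher in 2i than in FBS, where it averaged 2.88 ± 0.63 FPKM (log2 difference 1.31, limma adjusted p = 3.78e-07), and Bmp8b was lower in 2i than in FBS, at 2.61 ± 0.53 FPKM (-1.37, limma adjusted p = 1.78e-07). Bmp8b reached 1 FPKM only in the 4 libraries in FBS, so it passed the filter through the group where it was high. The other 11 ligands, Bmp2 among them, averaged at most 1.17 FPKM in any group. Of 8 receptors and co-receptors tested, 3 rose and 1 fell in the knockout (50% called, against 45.3% of all genes), and 5 were higher and 1 lower in 2i than in FBS (75% called, against 72.4%). The co-receptor Rgma averaged 4.85 ± 0.43 FPKM in the knockout, 2.94 ± 0.41 FPKM in wild type in 2i and 0.98 ± 0.10 FPKM in FBS (log2 differences 0.58 and 0.99, limma adjusted p = 0.000135 and 2.30e-07). Rgma reached 1 FPKM in 9 libraries and passed the filter through the groups in 2i, where it was high. For Rgma, which is among the 5 higher in 2i, the filter itself thus favoured that direction. Eng, the co-receptor endoglin, fell in the knockout to 13.9 ± 0.52 FPKM, against 20.5 ± 2.24 FPKM in wild type in 2i (-0.52, limma adjusted p = 8.76e-05), and stood at 9.09 ± 0.39 FPKM in FBS.

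Among the inhibitors, Smad7, which blocks both BMP and Nodal receptors, fell furthest in the knockout. It averaged 9.98 ± 0.58 FPKM there, against 26.4 ± 2.57 FPKM in wild type in 2i (log2 difference -1.32, SE 0.07, limma adjusted p = 9.50e-08), while its relative Smad6 rose. The common partner Smad4 did not pass, at 21.2 ± 0.23 and 19.7 ± 1.49 FPKM. Of 13 other intracellular inhibitors 6 rose and 3 fell in the knockout (69.2% called, against 45.3% of all genes), and 5 were higher and 6 lower in 2i than in FBS (84.6% called, against 72.4%). The repressors Ski and Skil averaged 26.8 ± 1.14 and 13.7 ± 1.17 FPKM in the knockout and 19.1 ± 1.79 and 10.7 ± 0.54 FPKM in wild type in 2i, and Ppm1a, a phosphatase that acts on Smads, 51.8 ± 3.92 FPKM in the knockout against 35.1 ± 0.52 FPKM in wild type in 2i (limma adjusted p = 5.06e-05, 0.00236 and 1.38e-05 for the 3 genes). All 3 were also lower in 2i than in FBS, where they averaged 29.8 ± 0.60, 27.3 ± 2.14 and 60.6 ± 4.23 FPKM. Of 9 extracellular antagonists and modulators tested, 6 rose and 1 fell in the knockout, where 24% of all genes rose and 21.4% fell. Grem1, which binds Bmp4, stood at 3.41 ± 0.85 FPKM in the knockout and 1.61 ± 0.46 FPKM in wild type in 2i (0.75, limma adjusted p = 0.00205). With fibroblast markers in the model, 3 of the 6 that rose lost most of the difference or changed sign. Grem1 gave 0.20 (limma adjusted p = 0.569), Bmp1 0.048 against 0.57 (limma adjusted p = 0.842) and Nbl1 -0.19 against 0.41 (limma adjusted p = 0.458). Values of Fstl3 and Crim1, which also rose, were not examined in that model. Skil (0.30 against 0.32), Fstl1 (0.46 against 0.55) and Rgmb (0.40 against 0.41) lost the call in that model with a larger SE and a difference about as large (limma adjusted p = 0.126, 0.0697 and 0.062).

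Of 6 other reported BMP targets tested, 4 rose and 1 fell in the knockout, where 24% of all genes rose and 21.4% fell. All 6 were lower in 2i than in FBS, as 35.3% of all genes were. Hand1 reached 1 FPKM only in the 4 libraries in FBS, and Gata3 in 8 libraries, none of them wild type in 2i. The filter itself thus favoured a lower level in wild type in 2i for both. With fibroblast markers in the model, Gata2 lost the call between media (-0.63 against -0.50, limma adjusted p = 0.0536). Msx2, a homeobox factor, averaged 6.32 ± 0.59 FPKM in the knockout, 1.61 ± 0.64 FPKM in wild type in 2i and 3.15 ± 0.44 FPKM in FBS (log2 differences 1.52 and -0.69, SE 0.15 for each, limma adjusted p = 7.80e-06 and 0.00092). Gata3, also a trophoblast marker, averaged 2.44 ± 0.10, 0.74 ± 0.17 and 2.23 ± 0.52 FPKM in the same order (0.98 and -0.88, limma adjusted p = 1.41e-05 and 6.23e-06). The 1 target that fell was Dusp9, a phosphatase of ERK that BMP induces in mouse ESCs. Dusp9 was named after its values were seen, and its values under the alternatives were not examined. It fell to 30.4 ± 6.11 FPKM in the knockout, against 46.6 ± 7.16 FPKM in wild type in 2i, which itself was below the 83.5 ± 13.4 FPKM of FBS (-0.61 and -0.83, limma adjusted p = 0.00571 and 0.000285). Hand1, a trophoblast and mesoderm factor, stood at 0.21 ± 0.06 FPKM in wild type in 2i and 12.3 ± 1.92 FPKM in FBS (-3.45, limma adjusted p = 6.92e-11). Its rise in the knockout, to 0.50 ± 0.14 FPKM (0.31, limma adjusted p = 0.0265), was lost after quantile normalization (0.21) and without knockout replicate 2 or 3 (0.0747 and 0.0727) or wild type in 2i replicate 1 or 2 (0.0698 and 0.0542), and with fibroblast markers in the model (0.373, with a log2 difference of 0.26 and SE of 0.19). Of 8 trophoblast-like markers tested, which include Gata3 and Hand1, 0 were higher and 7 lower in 2i than in FBS. Over all genes these shares were 37.1% and 35.3%. In the knockout the list was mixed: 4 rose, Gata3 and Hand1 among them, and 2 fell, where 24% of all genes rose and 21.4% fell. The part of such cells in these values was not tested.

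Of the E proteins that Id proteins bind, Tcf4 rose in the knockout to 8.22 ± 0.27 FPKM, against 5.94 ± 0.08 FPKM in wild type in 2i (log2 difference 0.41, limma adjusted p = 3.22e-05). Tcf3 averaged 52.4 ± 1.55 FPKM in the knockout, 46.0 ± 2.16 FPKM in wild type in 2i and 54.7 ± 0.96 FPKM in FBS (0.19 and -0.25, limma adjusted p = 0.00258 and 0.000105). With only the highest entry of Tcf3 used, the differences were 0.17 and -0.21 with an SE of 0.35 and neither passed (adjusted p = 0.727 and 0.606). With fibroblast markers in the model, the knockout difference of Tcf3 was 0.18 and did not pass (adjusted p = 0.132). Tcf12 did not pass in either comparison, but with those markers in the model it was lower in 2i than in FBS (-0.24, limma adjusted p = 0.0118).

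**Figure D4:**
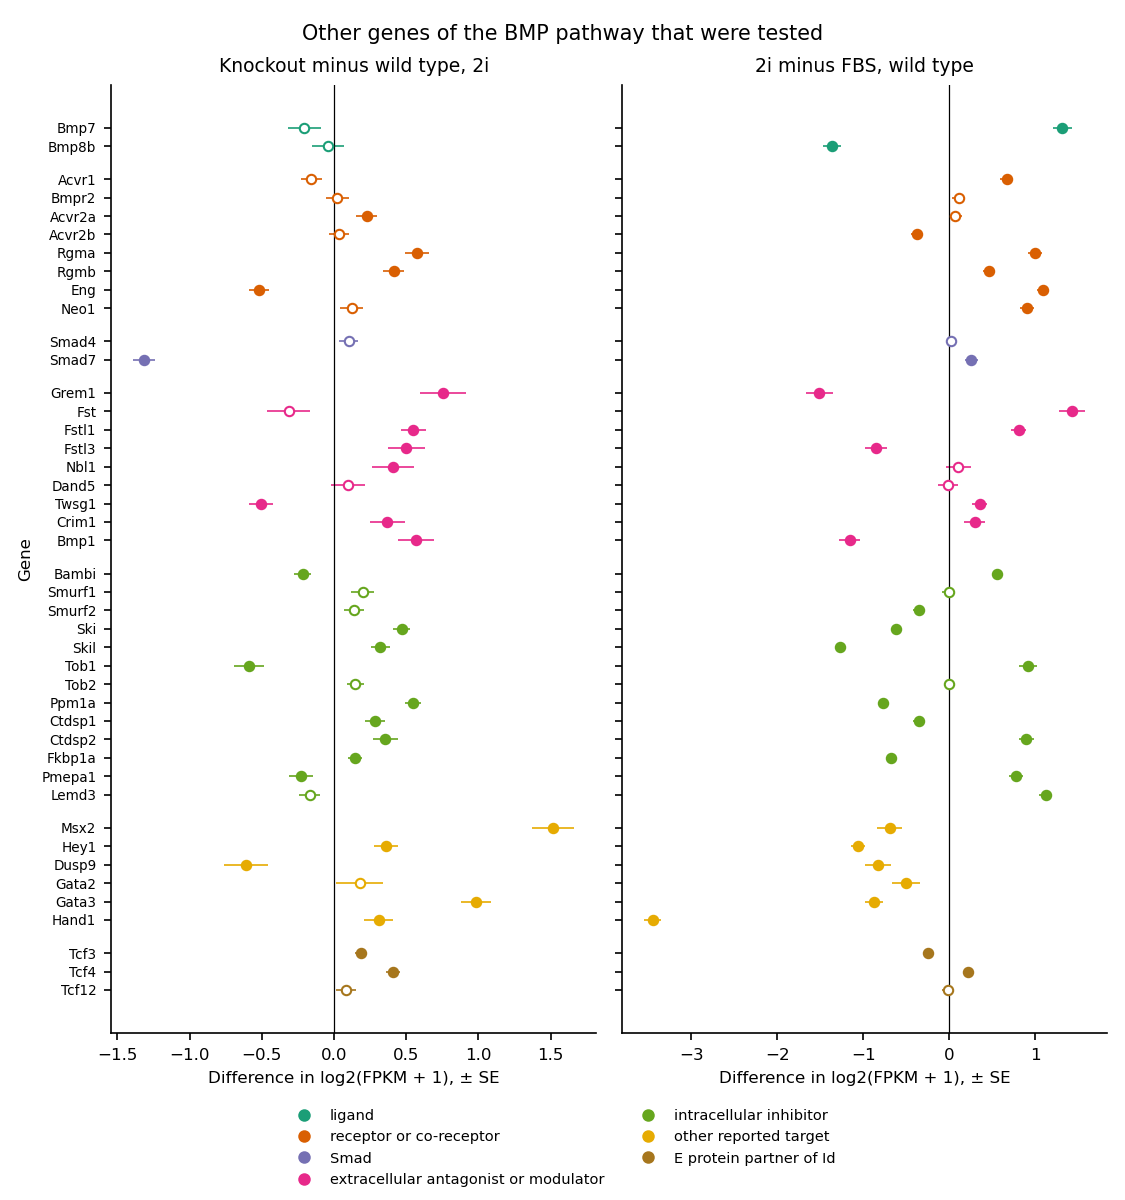
Differences in log2(FPKM + 1) ± SE of the limma fit for the 43 other pathway genes tested, by role, for the knockout minus wild type in 2i (left) and 2i minus FBS in wild type (right); open points did not pass an adjusted p of 0.05 and the scales of the panels differ. Smad7 lies lowest on the left at -1.32 and Msx2 highest at 1.52, and all 6 other reported targets lie below 0 on the right. Of these, Hand1 passed the filter only through its libraries in FBS.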

How the data were processed

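Expression was deposited as FPKM for each RefSeq transcript and library, with bounds and a status, per the file headers. CASAVA 1.8.2, Cufflinks and build mm9 are named in the submitters' processing notes; an aligner is not given in the sources used here. FPKM hold no read counts, so no count test was used. The authors' bounds lay a median of 5.38% (Bmpr1a) to 14.4% (Bmp4) of the value to either side for Bmp4, Bmpr1a, Id4 and the Smads; for Id1, Id2 and Id3 the upper bound lay below the value in 9, 11 and 12 libraries, so theirs were not used.

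Symbols were taken from GENCODE vM21 and RefSeq (GRCm38.p6), for 98.8% of 30761 entries; the other 362 kept their accession. Entries of a symbol were summed, and 7 genes with a failed estimate were left out. Table starts were read as 0-based and printed 1-based on mm9. Genes reaching 1 FPKM in 4 or more libraries entered the test on log2(FPKM + 1) with limma 3.58.1 in R 4.3.3: 1 mean per group over 12 libraries, eBayes with trend, two-sided, Benjamini-Hochberg adjusted over 12329 genes and called under 0.05. The fit was tested on simulated data. Alternatives changed the filter, the pseudocount, the scaling, the summing of entries, the libraries fitted and the model terms. An exact permutation test of 4 against 4 libraries cannot go below 0.0286. The labels do not say whether the 4 libraries are separate cultures; p-values then measure only their spread, possibly technical. Likeness of profiles was sought among tested genes of at least 2 FPKM on average. Named genes were the 9 members, per role up to 3 pathway genes with the smallest adjusted p and the highest gene not called, and the 3 most alike genes for members spanning at least 1 log2 unit; some are left out for brevity, and Dusp9 lies outside the rule. Members and lists were chosen with earlier results of these data known. Python 3.11.15, pandas 2.3.3 and matplotlib 3.10.9 were also used.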

Additional observations from a re-analysis of the deposited data

Results flagged for a closer look

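Among 189 sets of 4 values checked (members, named genes and Id and Smad sums), 8 held a library far from the other 3 (a gap to the nearest of them above the 95% limit of Dixon's test); chance gives about 1 in 20. In the knockout, Bmp7 was 8.86 FPKM in replicate 2 (others 6.66 to 6.98), Fst 7.25 in replicate 4 (5.82 to 5.94), Tob1 21.2 in replicate 2 (18.2 in the others) and Efnb1 2.59 in replicate 1 (3.02 to 3.06). In wild type in 2i, replicate 3 had 21.9 FPKM of Smad4 (others 18.8 to 19.3) and 11.8 FPKM of Smad1 and Smad5 together (9.73 to 10.1). In FBS, Ppm1a was 66.9 FPKM in replicate 4 (57.9 to 59.4), and Id4 made up 4.46% of the Id sum in replicate 3 (3.41% to 3.46%).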

How the results depend on the processing

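Of 645 recomputed values of the 9 genes over the 3 comparisons, 608 kept direction and call, 31 lost the call, 1 gained it and 5 changed sign. Alternatives that changed only the filter, the trend, the replicate block or libraries outside the comparison could not move the log2 difference. In those only the call could change. With the fibroblast marker level in the model, 1986 genes and 1 of the 9 passed in the knockout comparison, against 5589 and 5. For the knockout against FBS, 2350 genes and 2 of the 9 passed, against 8212 and 6. This term also widened errors (Id1: SE 0.19 against 0.11). The marker level ran from 4.19 to 4.82 in the knockout, 3.59 to 4.09 in wild type in 2i and 3.16 to 3.45 in FBS. Because these ranges lie apart, a lost call or changed sign cannot separate a fibroblast share from genotype or medium. Leaving out 1 library gave 3 to 5 of the 9 in the knockout comparison, and 8 of the 9 each time between media. The knockout count was 3 without knockout replicate 2, 3 or 4 or wild type in 2i replicate 1. In these runs 4834, 4818, 4928 and 4816 of all 12329 genes passed, in that order, against 5589. Leaving out an FBS library, which is outside that comparison, kept 5. Between media 8506 to 8966 genes passed, against 8928. The sign changed with fibroblast markers for Bmpr1a (-0.084 in the knockout, -0.29 against FBS), and for Id1 (-0.37) and Id4 (-0.064) of the knockout against FBS, and for Id1 without FBS replicate 3 (-0.036; -0.036 to 0.15 with 1 library left out). Of the other named genes, that term also turned Smad4 (-0.010 in the knockout, -0.071 between media, -0.081 against FBS), Nbl1 (-0.19, -0.38 and -0.58), Tcf12 (-0.19 in the knockout, -0.44 against FBS), Acvr2a (-0.024 between media) and Gata3 (-0.13 against FBS), and the highest entry turned Tcf12 (0.18 between media). Leaving out 1 library also turned Bmp8b and Gata2 in the knockout (-0.098 to 0.013 and -0.0052 to 0.33), and Smad4, Tob2 and Tcf12 between media (-0.041 to 0.048, -0.040 to 0.027 and -0.048 to 0.012). The cause of these shifts was not tested. Smad5 was not tested with a filter of 5 FPKM. Same-numbered libraries deviated together weakly, with correlations across genes of 0.055 to 0.258 in the knockout comparison and 0.027 to 0.186 between media. In these comparisons 6 and 4 of 8 libraries were closest to their own number. The fibroblast marker level rose from replicate 1 to 4 in the knockout (4.19, 4.39, 4.54 and 4.82) and in wild type in 2i (3.59, 3.71, 3.92 and 4.09), but not in FBS. The replicate number as a block gave 5567 and 8899 genes and 5 and 8 of the 9. What that number stands for is not given by the labels. Read depth is unknown, which limits the precision given for low genes such as Bmp4 in 2i.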
